A study of Mus musculus with 12 samples.

Results

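Pax9, Pitx1, Meis1, Meis2, Sox2 and Eya1 are transcriptional regulators that pattern the mouth, the pharynx and the front part of the gut in the embryo. They were measured here in mammary tumours of 6 mouse strains, with each probe taken whose name in the files, or whose current symbol by its accession, was one of the 6 genes. The rule found 6 of the 28919 gene names on the array, read by 9 of its 41174 probes: 1 each for Pax9, Pitx1 and Sox2 and 2 each for Meis1, Meis2 and Eya1. The files name the Meis2 probes Mrg1, an older symbol of that gene. The scanner marked all 9 probes as well above background on the tumour side of all 24 arrays and none as saturated, and all 9 entered the fit over 40847 probes. Sox2 and Meis1 probe 2 were dim, with tumour signals down to 29.3 and 41.5 units. The genes were chosen because their levels in YB tumours were already known to stand apart from those in NDL25 tumours, and Eya1 also for its level in NYPD tumours. Those contrasts are therefore given as differences with a standard error and without a p-value.

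All strains carry an activated neu (ErbB2) transgene behind the MMTV promoter, which is active in mammary epithelium and in some other glandular tissues. ErbB2 is a receptor tyrosine kinase whose tail carries autophosphorylation sites that recruit signalling adaptors. The strains YB, YC, YD and YE each carry a receptor with 1 of these sites restored, NYPD carries the receptor without the sites, and NDL25, written NDL2-5 in the protocols, is the parental strain with the activated receptor. RNA from 10 tumours of each strain, taken from female mice that had borne tumours for 6 weeks, was combined into 2 pools of 5 tumours, so a value describes a mixture of animals. Ages were not given in the labels used here. Each of the 12 pools was hybridised on 2 arrays with the dyes exchanged, against Universal Mouse Reference RNA, which is sold as a blend of RNA from a range of mouse cells.

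As background, Pax9 is a paired-box factor needed for teeth, palate and the organs that form from the pharyngeal pouches. Pitx1 is a homeodomain factor of the first pharyngeal arch and of the hindlimb. Meis1 and Meis2 are homeodomain proteins of the TALE class that bind DNA together with Pbx and Hox proteins. Sox2 is an HMG-box factor that marks stem cells of several kinds and, in the gut, the future oesophagus and forestomach. Eya1 is a coactivator and phosphatase that works with DNA-binding partners in the ear, the kidney and the pharyngeal region. Adult oral epithelium and salivary glands keep some of these factors, and the normal mammary gland is not a tissue they are best known for.

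Levels are given as log2 of tumour over reference, so 0 stands for the level in the reference RNA and 1 for a doubling of the signal. Per array, the tumour channel had a median signal of 364.8 to 763.5 intensity units and a median local background of 39 to 64 units. Luminal mammary markers, such as the keratins Krt8 and Krt18 and the adhesion protein Epcam, averaged log2 1.93 to 2.42 over 10 genes in the 12 pools, above the reference in each pool. The list was not uniform. Krt19 had means of -2.52 in NDL25 and 0.89 in YB, and Esr1 had -0.25 and -0.55, while the remaining genes had means above the reference in both strains. Salivary gland markers were also high in YB and are given below beside the results they move with. The file headers give the day on which signals were extracted from each scan, which need not be the day of hybridisation. By that day the arrays fell into 3 sessions. YB, NDL25, YC pool 1 and 1 array of YC pool 2 were in one. YD, YE and the other array of YC pool 2 were in another, and NYPD was alone in the third. YB and NDL25 therefore shared a session, while for NYPD strain and session cannot be told apart. The number of pools limits the precision. In bulk tumour RNA, fewer cells of a type and less RNA per cell cannot be told apart.

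The promoters of 4 of the 6 genes had an entry in the RefSeq table of build GRCm38.p6, and they are shown because Pax9, Meis2 and Sox2 were high in the same tumours while Meis1 had another pattern. Each window runs from 250 bases before the annotated start to 50 bases after it. It was searched on both strands for TGACAG, a core of sites bound by Meis-type factors, TAATCC of the Pitx type, AACAAT of the Sox type, GTCACGC of the paired-domain type and the TATA box TATAAA. Capitals mark a match, and no 2 matches overlapped. Pax9 lies at chr12:56695221-56695520 on the plus strand, Meis1 at chr11:19018920-19019219 on the minus strand, Meis2 at chr2:116064570-116064869 on the minus strand and Sox2 at chr3:34649745-34650044 on the plus strand.
Pax9: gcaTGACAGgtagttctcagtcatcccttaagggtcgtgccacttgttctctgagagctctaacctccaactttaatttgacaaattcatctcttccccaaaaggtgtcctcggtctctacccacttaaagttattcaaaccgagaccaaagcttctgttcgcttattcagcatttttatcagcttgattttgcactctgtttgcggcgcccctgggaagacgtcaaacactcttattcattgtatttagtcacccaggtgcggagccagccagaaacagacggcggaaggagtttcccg
Meis2: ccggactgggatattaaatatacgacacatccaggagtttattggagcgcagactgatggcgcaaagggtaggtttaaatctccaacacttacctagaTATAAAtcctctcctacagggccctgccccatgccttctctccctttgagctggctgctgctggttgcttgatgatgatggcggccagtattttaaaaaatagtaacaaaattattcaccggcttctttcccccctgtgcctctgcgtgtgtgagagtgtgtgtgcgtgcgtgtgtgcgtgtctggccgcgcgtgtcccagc
Sox2: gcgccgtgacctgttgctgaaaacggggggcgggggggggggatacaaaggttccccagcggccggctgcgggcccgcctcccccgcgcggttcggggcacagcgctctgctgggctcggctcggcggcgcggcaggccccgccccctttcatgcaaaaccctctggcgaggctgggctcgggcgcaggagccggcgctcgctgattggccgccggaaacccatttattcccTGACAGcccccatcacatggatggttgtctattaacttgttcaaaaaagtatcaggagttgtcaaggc
Meis1: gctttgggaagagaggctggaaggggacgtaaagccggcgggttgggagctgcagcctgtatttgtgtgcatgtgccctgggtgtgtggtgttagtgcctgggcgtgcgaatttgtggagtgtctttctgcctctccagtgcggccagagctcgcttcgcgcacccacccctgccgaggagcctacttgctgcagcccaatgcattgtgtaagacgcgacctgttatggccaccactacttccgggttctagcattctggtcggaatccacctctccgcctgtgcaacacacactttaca
TGACAG was found in the Pax9 window at -247 and in the Sox2 window at -18 relative to the start, and 19.2% of the 32851 promoters of the same length hold it. The Meis2 window held TATAAA at -152, as 13.6% of all promoters do. The Meis1 window held none of the 5 motifs. The Pitx, Sox and paired-domain motifs, which occur in 7.06%, 10.7% and 2.09% of promoters, were in none of the 4 windows. These are matches of letters only. The windows of Pax9, Meis2, Sox2 and Meis1 held 11, 13, 27 and 15 CpG dinucleotides, against a median of 7 over all promoters. Of all promoters, 60.4%, 63.7%, 85.8% and 67.0% held as many or fewer.

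Pax9 was far higher in YB than in any other strain. Its level was log2 3.94 and 3.59 in the YB pools, -0.27 and -0.20 in the YC pools, -0.24 and -0.20 in the YD pools, -0.23 and -0.24 in the YE pools, 0.00 and 0.00 in the NYPD pools and -0.20 and -0.26 in the NDL25 pools. Both YB pools lay far above all others, and the NYPD pools lay just above those of the remaining strains. On the processed intensity scale the tumour channel read 7570 to 8840 units on the 4 YB arrays and 198 to 392 units on the 20 other arrays, while the reference channel read 275 to 504 units throughout. YB minus NDL25 was 4.0 ± 0.10 on the log2 scale (SE, n = 2 pools in each strain), or 16-fold. This was the widest difference of the 9 probes, ahead of 3.86 for Meis2 probe 2, but the order turned with the authors' deposited ratios (4.47 for Pax9 and 4.67 for Meis2 probe 2), on arrays with the tumour in Cy3 (3.96 and 4.12) and without YB pool 2 (4.17 and 4.23). For Pax9 it was 4.66, or 25.3-fold, with the scanner's processed signals in place of the background correction and normalisation used here. Below YB and NYPD, the means of YD, NDL25, YE and YC differed by 0.01 or less from 1 to the next, with overlapping pools.

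**Figure D1:**
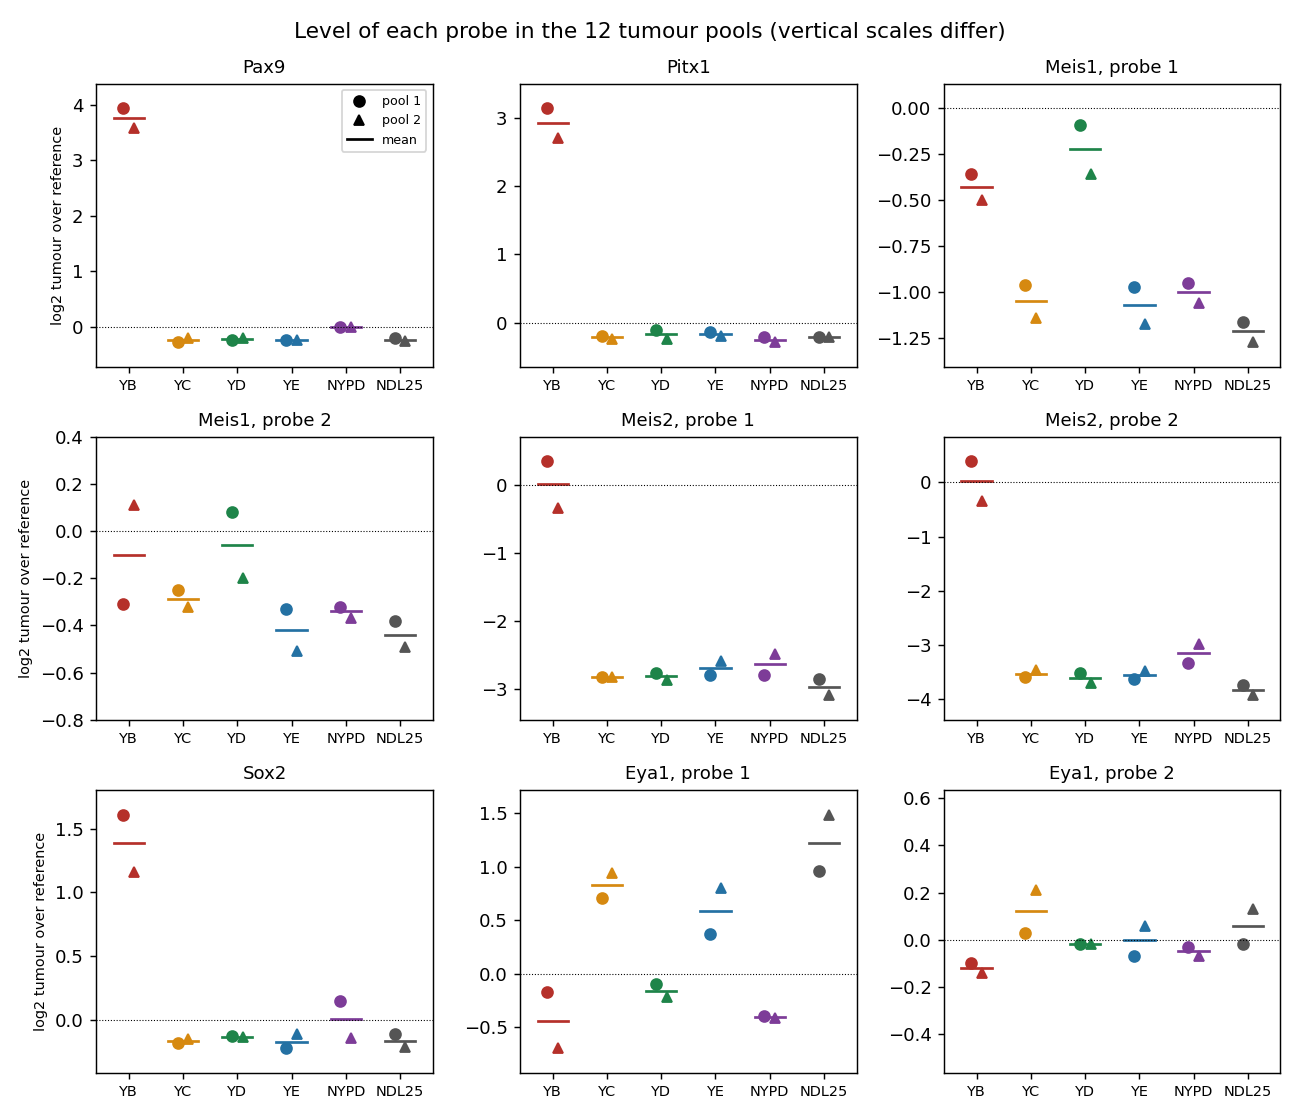
Level of each of the 9 probes, as log2 tumour over reference, in the 12 tumour pools by strain (circles pool 1, triangles pool 2, horizontal lines the mean of 2 pools; vertical scales differ between panels, and the dotted line is the reference level). Pax9, Pitx1, both Meis2 probes and Sox2 have both YB pools above all other pools, Meis1 has its highest means in YD and YB, and probe 1 of Eya1 is highest in NDL25 and lowest in YB and NYPD.

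Pitx1 was also far higher in YB than in the other strains. It stood at log2 3.14 and 2.71 in the YB pools, against -0.19 and -0.23 in YC, -0.10 and -0.23 in YD, -0.14 and -0.19 in YE, -0.21 and -0.28 in NYPD and -0.21 and -0.20 in NDL25. The 10 pools outside YB thus spanned -0.28 to -0.10. YB minus NDL25 was 3.13 ± 0.12, or 8.76-fold. The tumour channel had 7530 to 16900 units in YB and 624 to 1480 units in the other strains, with 741 to 1640 units in the reference. Among the 5 strains other than YB no neighbours in the order of Pitx1 means were separated by their pools, and NYPD, highest of the 5 for Pax9, was lowest for Pitx1. Over the 10 pools outside YB, which were measured on the same arrays for both genes, Pearson's r between Pax9 and Pitx1 was -0.59, given as a description.

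Meis2 differed from Pax9 and Pitx1 in its level outside YB, where it was far below the reference RNA. Probe 1 had log2 0.35 and -0.34 in the YB pools, -2.83 and -2.82 in YC, -2.77 and -2.86 in YD, -2.80 and -2.59 in YE, -2.79 and -2.48 in NYPD and -2.85 and -3.09 in NDL25. Probe 2 had 0.39 and -0.34 in YB, -3.60 and -3.47 in YC, -3.52 and -3.71 in YD, -3.63 and -3.49 in YE, -3.34 and -2.98 in NYPD and -3.75 and -3.93 in NDL25. In YB tumours Meis2 was therefore near its level in the reference, and in the other strains it was low on both probes. YB minus NDL25 was 2.97 ± 0.22, or 7.85-fold, by probe 1 and 3.86 ± 0.23, or 14.5-fold, by probe 2. With the authors' deposited ratios the differences were 3.58 and 4.67. The YB pools lay further apart than those of other strains, with an SD of 0.49 for probe 1 and 0.52 for probe 2, against 0.01 to 0.22 and 0.09 to 0.26. The standard error pools the spread of all 6 strains and is small for YB in that light. A further probe that the files call Mrg1, whose accession was not matched to a current symbol and which is not counted among the 9, had a mean of 0.52 in YB and pool values of -1.88 to -1.0 elsewhere.

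Sox2 was the dimmest of the YB-high genes. Its level was log2 1.61 and 1.16 in the YB pools, -0.18 and -0.15 in YC, -0.12 and -0.13 in YD, -0.22 and -0.11 in YE, 0.15 and -0.14 in NYPD and -0.11 and -0.21 in NDL25. The lower YB pool was above the highest other pool, NYPD pool 1. The tumour channel read 425 to 653 units in YB and 29.3 to 102 units in the other strains, while the reference channel had 58.9 to 98.9 units. YB minus NDL25 was 1.55 ± 0.15, or 2.92-fold. With processed signals it was 3.17, or 9-fold. The offset of 50 units, which steadies ratios of dim spots, is close to the signal of Sox2 outside YB. Its part in this change was not tested.

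Meis1 gave another picture, with the highest means in YD and YB. Probe 1 had log2 -0.36 and -0.50 in the YB pools, -0.96 and -1.14 in YC, -0.09 and -0.36 in YD, -0.97 and -1.17 in YE, -0.95 and -1.06 in NYPD and -1.16 and -1.27 in NDL25. The 4 pools of YD and YB lay above the other 8. YB minus NDL25 was 0.79 ± 0.12, or 1.72-fold, and 1.40, or 2.64-fold, with the authors' deposited ratios. Probe 2, with 41.5 to 207 units of tumour signal, had -0.31 and 0.11 in YB, -0.25 and -0.32 in YC, 0.08 and -0.20 in YD, -0.33 and -0.51 in YE, -0.32 and -0.37 in NYPD and -0.38 and -0.49 in NDL25. On this dimmer probe the means were again highest in YD and YB, but YB pool 1 lay among the pools of YC, YE and NYPD. YB minus NDL25 was 0.34 ± 0.15 there.

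Meis1 probe 1 was higher by 0.99 ± 0.12 in YD than in NDL25, or 1.99-fold, and probe 2 by 0.38 ± 0.15. Over the alternatives the difference for probe 1 ran from 0.86 to 1.56. The genes were chosen against these NDL25 pools, which are the lowest of all strains on average for both Meis1 probes, so no p is given for these differences. An F test among NYPD, YC, YD and YE, which takes from YB and NDL25 only their share of the pooled spread and was chosen after seeing the data, gave limma's adjusted p = 0.0712 for probe 1 and 0.62 for probe 2 over all 40847 probes, and both miss the threshold of 0.05. Over the alternatives the adjusted p for probe 1 ran from 0.0439 to 0.328. YE, which shared a session with YD, had -0.97 and -1.17 on probe 1 against -0.09 and -0.36 in YD, and those pools did not overlap. Stromal markers, a list of 9 genes such as Col1a1 and Dcn that fibroblasts express, had summed tumour signals of 55100 to 88400 units in the YD pools and 76100 to 150000 in YB, against 46500 to 55000 in YC, 32100 to 52700 in YE, 101000 to 166000 in NYPD and 56100 to 66200 in NDL25. Each of the 9 stromal genes was well above background on at least 1 array of every strain. Their part in the Meis1 levels was not tested.

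Eya1 was the only member with lower levels in YB, and its probes disagreed in size. Probe 1, listed under a cDNA accession, had log2 -0.17 and -0.70 in the YB pools, 0.71 and 0.94 in YC, -0.10 and -0.22 in YD, 0.37 and 0.80 in YE, -0.40 and -0.42 in NYPD and 0.96 and 1.49 in NDL25. The pools of YB, YD and NYPD all lay below 0 and those of NDL25, YC and YE all above it. Relative to NDL25 the differences were -1.66 for YB, -0.40 for YC, -1.38 for YD, -0.64 for YE and -1.63 for NYPD, each ± 0.23, so the YB level was 0.316 of that in NDL25. Tumour signal on this probe was 810 to 1310 units in YB and 914 to 5600 units in the other strains. Probe 2, listed under a RefSeq transcript, had -0.10 and -0.14 in YB, 0.03 and 0.21 in YC, -0.02 and -0.02 in YD, -0.07 and 0.06 in YE, -0.03 and -0.07 in NYPD and -0.02 and 0.13 in NDL25. It was near the reference in each pool, with the YB pools lowest and a YB minus NDL25 difference of -0.18 ± 0.08. Which transcripts each probe reads was not analysed here.

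**Figure D2:**
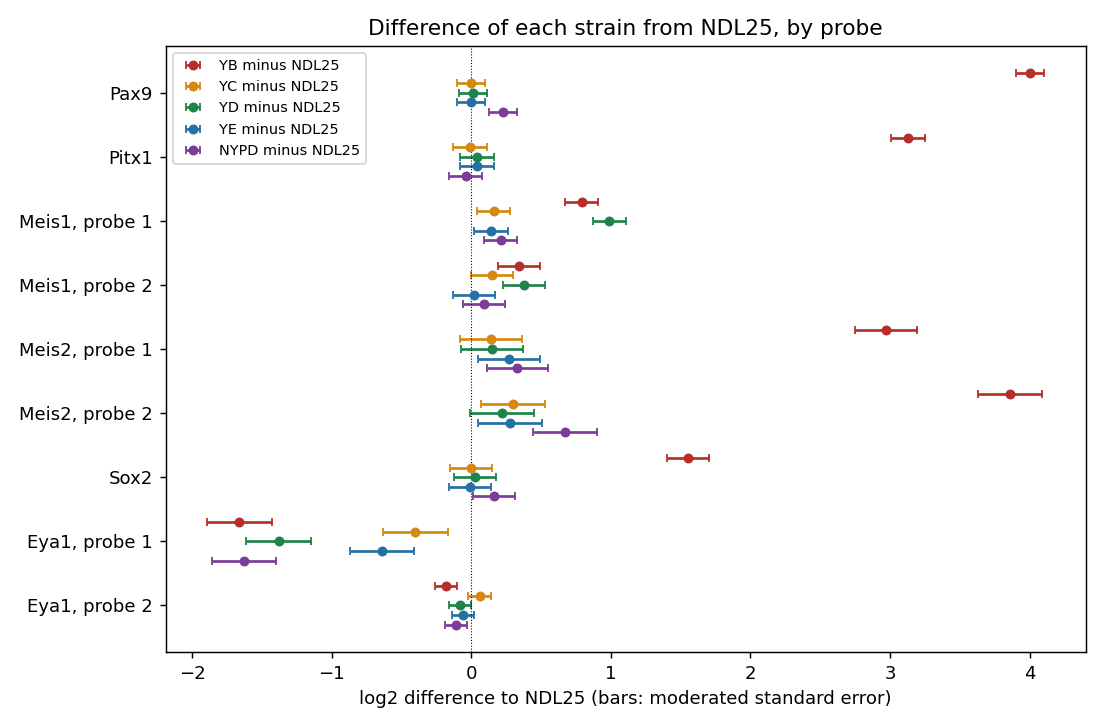
Difference of YB, YC, YD, YE and NYPD from NDL25 for each probe, on the log2 scale (points: difference of means of 2 pools; bars: moderated standard error from limma). YB stands 1.55 to 4.0 above NDL25 for Pax9, Pitx1, Meis2 and Sox2, while the other strains lie within 0.67 of NDL25 on these probes; YD and YB are highest for Meis1 probe 1, and YB, NYPD and YD are lowest for Eya1 probe 1.

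Counted together, 5 of the 9 probes had both YB pools above all 10 other pools, namely those of Pax9, Pitx1, Meis2 and Sox2, where 8.48% of all probes did. The lower-level counterpart was 1 of 9, Eya1 probe 2, where 4.52% of all probes had both YB pools below all others. By limma, 7 of the 9 had an adjusted p under 0.05 in YB against NDL25, where 3.11% of all probes did. The genes were picked on that contrast, so nothing is read from these 3 counts.

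Outside YB the question was whether these factors also differed among the strains they were not chosen on. Eya1, chosen for NYPD too, is left out, which leaves 7 probes. The F test among NYPD, YC, YD and YE called 0 of the 7 by limma with Benjamini-Hochberg adjustment, where 0.0685% of all probes were called. At an unadjusted p under 0.05 it had 1 of the 7, against 5173 of all 40847 probes. After Meis1 probe 1, the smallest adjusted p were 0.585 for Pax9 and 0.62 for Meis1 probe 2, with 0.991 for Pitx1 and 0.922 for Sox2. The remaining counts reuse the 2 NDL25 pools on which the members were chosen, and which had the lowest strain mean for both Meis1 and both Meis2 probes, so they are not independent of that choice and nothing is read from them. Against NDL25, 0 of 7 probes were called in NYPD (0.864% of all probes), 0 in YC (0.00734%), 0 in YD (0%) and 0 in YE (0.00245%). At an unadjusted p under 0.05 the 7 included 1 probe in NYPD, none for YC, 2 in YD and none for YE. All 40847 probes gave 6474, 4620, 4043 and 2900. The F test with NDL25 added called 0 of the 7 (0.125% of all probes). It had 1 at an unadjusted p under 0.05, against 5804 of all 40847 probes. Meis2 probe 2 was 0.67 ± 0.23 and Pax9 0.23 ± 0.10 higher in NYPD than in NDL25, and Pitx1 differed from NDL25 by -0.04 to 0.04 in these 4 strains, each ± 0.12.

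The 2 arrays of a pool, in which the dyes were exchanged, gave nearly the same levels. The gap between the array with tumour in Cy5 and that with tumour in Cy3 was between -0.32 and 0.25 for Pax9, Pitx1, Sox2, Meis1 and Eya1. It was 0.14 to 0.48 for Meis2 probe 1 and -0.08 to 0.61 for probe 2, small beside the differences between YB and the other strains. For Meis1 probe 2 and Eya1 probe 2 the gaps were not small beside the YB minus NDL25 differences. They ran from -0.32 to 0.18 and from 0 to 0.25, against differences of 0.34 and -0.18.

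**Figure D3:**
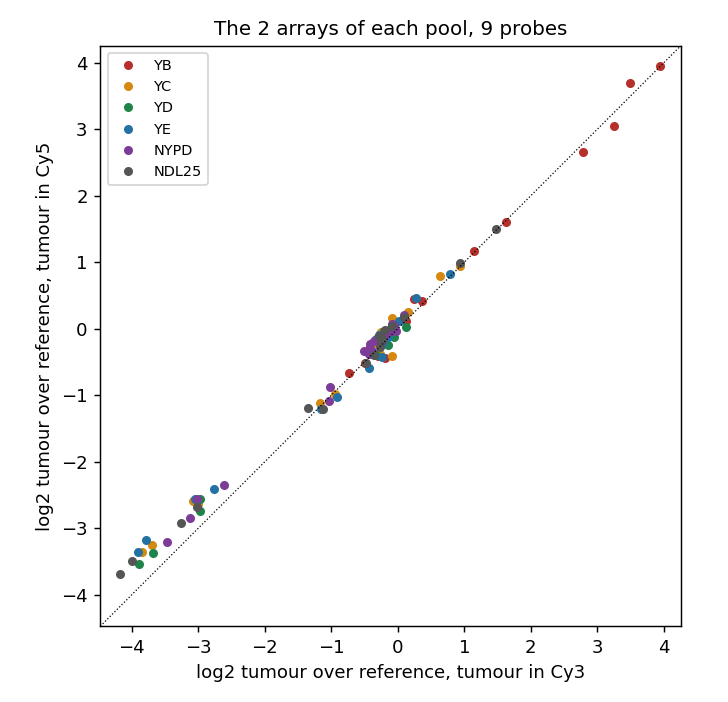
The 2 arrays of each pool for the 9 probes: log2 tumour over reference with the tumour in Cy3 (horizontal) against that with the tumour in Cy5 (vertical), coloured by strain, with the line of equality dotted. Points lie close to the line, apart from Meis2 outside YB at the lower left, which reads up to 0.61 higher with the tumour in Cy5.

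Both YB pools carried the pattern, and pool 1 read higher for most members. Pool 1 was above pool 2 by 0.35 for Pax9, 0.43 for Pitx1, 0.69 and 0.74 for the Meis2 probes, 0.45 for Sox2 and 0.53 for Eya1 probe 1, while the gap was -0.43 for Meis1 probe 2. Of the 14 salivary gland markers 5 were higher and 9 lower in pool 1, and of the 8 called higher in YB 3 were higher and 5 lower. Pool 1 minus pool 2 was 0.63 for the proline-rich protein gene Prb1 and 0.41 for the lactoperoxidase gene Lpo, 0.01 for Bpifb1, -0.17 for Crisp1, -0.12 for Prpmp5, -0.63 for Prp2, -0.52 for the amylase gene Amy1 and -1.90 for Prh1. Among those not called, Pip had -2.97, Car6 -1.56 and Smr3a 1.36. Over the 214 probes called higher in YB than in NDL25 by at least 1 on the log2 scale, 107 were higher in pool 1 and the median gap was 0.00.

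**Figure D4:**
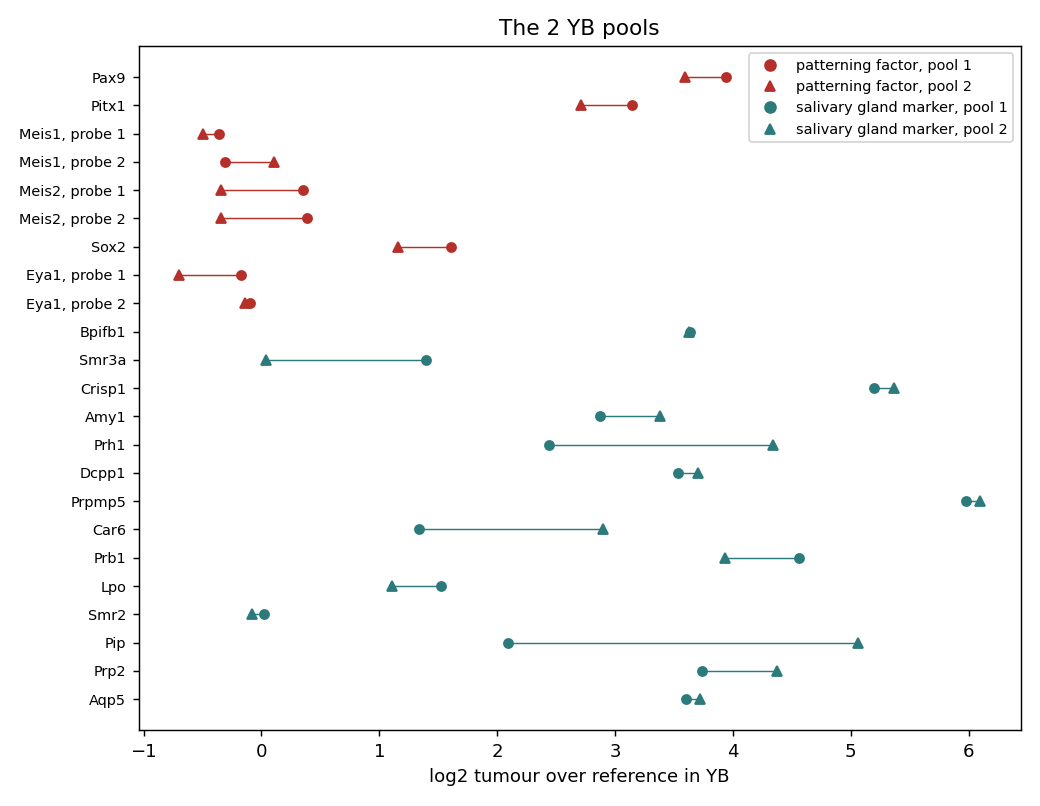
Level in YB pool 1 (circles) and YB pool 2 (triangles), as log2 tumour over reference, for the 9 probes of the patterning factors (red) and 14 salivary gland markers (teal). The red circles lie to the right of the triangles for 8 of 9 probes by 0.04 to 0.74, and Meis1 probe 2 is the exception; among the teal markers 5 circles lie to the right and 9 to the left.

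Salivary gland markers were high in the same YB pools as Pax9, Pitx1, Meis2 and Sox2. The summed tumour signal of the 14 measured of 16 markers was 340000 to 417000 units in the YB pools, against 93400 to 120000 in YC, YD and YE, 73200 to 93100 in NYPD and 115000 to 137000 in NDL25. Of the 14, 8 were higher in YB than in NDL25 by limma and 0 lower, where 2.49% and 0.622% of all probes were. The list median was 2.13 against -0.01 over all probes. The marker lists were chosen with earlier results of these data known, so nothing is read from their counts or p-values. Prpmp5, which encodes a proline-rich salivary protein, was at 5.98 and 6.10 in YB, with a difference of 5.95 ± 0.07. Crisp1 was at 5.20 and 5.37, with a difference of 5.28 ± 0.07. Smr2, Smr3a, Car6, Pip, Dcpp1 and Aqp5 did not pass the test, with differences of -0.06, 0.52, 0.54, 0.70, -0.45 and 0.75. Of these, Car6, Pip, Dcpp1 and Aqp5 were also far above the reference in NDL25, with means of 1.58, 2.87, 4.07 and 2.92. Each of the 14 was well above background on at least 1 array of every strain. Of the epidermal markers 2 of 10 were called higher in YB, Lor at 0.69 (adjusted p = 0.0487) and Tgm3 at 2.48 (adjusted p = 0.000162), with a list median of 0.16. On their brightest probes the others ran from -0.13 for Sprr1b to 0.83 for Calml3, and a second probe of Krt10 gave 2.78. Summed epidermal signals were 9480 to 10700 units in YB, against 5760 to 5920 in YC, 6570 to 6630 in YD, 5560 to 6260 in YE, 7740 to 23100 in NYPD and 5140 to 5730 in NDL25. The highest epidermal sum was thus in an NYPD pool, and the other NYPD pool lay below both YB pools. Skeletal muscle, nerve and lymphocyte markers had 0 of 11, 0 of 9 and 0 of 9 called in YB, with medians of 0.09, -0.08 and 0.11, and luminal, basal and stromal markers had 1 of 10, 0 of 8 and 0 of 9, with medians of 0.00, 0.40 and 0.76. The luminal gene was Krt19, a keratin that was 3.40 higher in YB (adjusted p = 0.0368). Its YB pools were at 1.48 and 0.29, and the highest pool of another strain was at 0.49. Krt19 differed from NDL25 by 2.86 in NYPD, 1.70 in YD, 1.56 in YC and -0.57 in YE, none of them called. The part of other cell types in the levels of the patterning factors was not tested.

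The genes most like each factor across the 12 pools were found by Pearson's r between brightest probes, out of 17634 genes with ordinary symbols. This r mostly restates the gap between YB and the rest, which all these genes share, and it is given as a description. For Pax9 they were Sbp (r = 0.997), Bpifb1 (0.996), Crisp1 (0.995), Tgm3 (0.994) and Prpmp5 (0.994), and for Pitx1 Sbp (0.998), Prb1 (0.998), Bpifb1 (0.996), Crisp3 (0.996) and Prpmp5 (0.995). For Meis2 they were Sbp (0.991), Prb1 (0.991), Tgm3 (0.990), Kash5 (0.989) and Crisp3 (0.989), and for Sox2 Crisp3 (0.988), Dach2 (0.988), Ccl20 (0.984), Tas2r139 (0.983) and Sbp (0.982). Between 178 and 337 genes had an r over 0.9 with these 4 factors. Meis1 and Eya1 had few such genes, 1 and 4. Those nearest Meis1 were Mrc2 (0.909), Mrap (0.899), Ptx3 (0.891), Ttll9 (0.890) and Camk2b (0.887), and of these Ptx3, a secreted pattern-recognition protein, was 2.49 higher in YD and 1.72 higher in YB than in NDL25 on the log2 scale. Those nearest Eya1 were Ccdc96 (0.945), Speer4a (0.936), Ccnk (0.916), Fermt2 (0.913) and Actl9 (0.897).

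Other genes of the same families, their partners and other regulators of oral, foregut and salivary development were examined as 6 lists of 98 genes, 97 of them on tested probes, by the brightest probe of each gene. These lists too were chosen with earlier results of these data known. Their counts and p-values, here and below, are given as a description. In YB 3 of the 97 were higher than in NDL25 and 0 lower, against 2.49% and 0.622% of all probes. Of the partners 2 of 15 were higher, of the other members of the Pax, Pitx, Meis, Sox and Eya families 1 of 18, and of 21 oral and tooth factors, 14 foregut factors, 13 salivary gland factors and 16 inductive signals none passed by limma. At an unadjusted p under 0.05 these last 4 lists held 1, 5, 3 and 1 genes, where 6550 of all 40847 probes passed. List medians in YB ran from -0.13 for the salivary gland factors to 0.03 for the partners, against -0.01 over all probes. The count in YB was 1 without NDL25 pool 1, 2 without NDL25 pool 2 or without any 1 pool of YC, YD or YE, and 0 when only the 4 pools of YB and NDL25 were fitted.

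Pknox2, a TALE homeodomain relative of the Meis proteins, stood at 0.52 and 0.66 in YB and between -0.24 and -0.02 in the 10 other pools. It rose by 0.77 ± 0.08 (adjusted p = 0.00552), while its other probe gave 0.09 ± 0.06 (adjusted p = 0.547). Dach2, a corepressor of the Dachshund family, stood at 0.58 and 0.48 in YB and between -0.12 and -0.02 elsewhere. It rose by 0.63 ± 0.06 (adjusted p = 0.00306), and its remaining probes gave -0.39 ± 0.26 and -0.07 ± 0.11. The call for Pknox2 was lost without NDL25 pool 1 (adjusted p = 0.0538), and both calls were lost when only the 4 pools of YB and NDL25 were fitted. Pax8, a paired-box factor of thyroid and kidney, had 0.25 and 0.49 in YB and -0.06 to 0.04 elsewhere, and rose by 0.38 ± 0.08 (adjusted p = 0.0424). Its other probe gave 0.20 ± 0.08 (adjusted p = 0.238), and the call for Pax8 was kept in 8 of 23 alternatives. For Pknox2, Dach2 and Pax8 the rise thus rests on 1 probe each. Pax1, the closest relative of Pax9, was seen to have 1 high pool: 3.50 in YB pool 1 and -0.15 in YB pool 2, with -0.37 to 0.02 elsewhere and a difference of 1.69 ± 0.93 (adjusted p = 0.448) on its brightest probe. The other Pax1 probe gave a difference of 0.07 (adjusted p = 0.755).

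**Figure D5:**
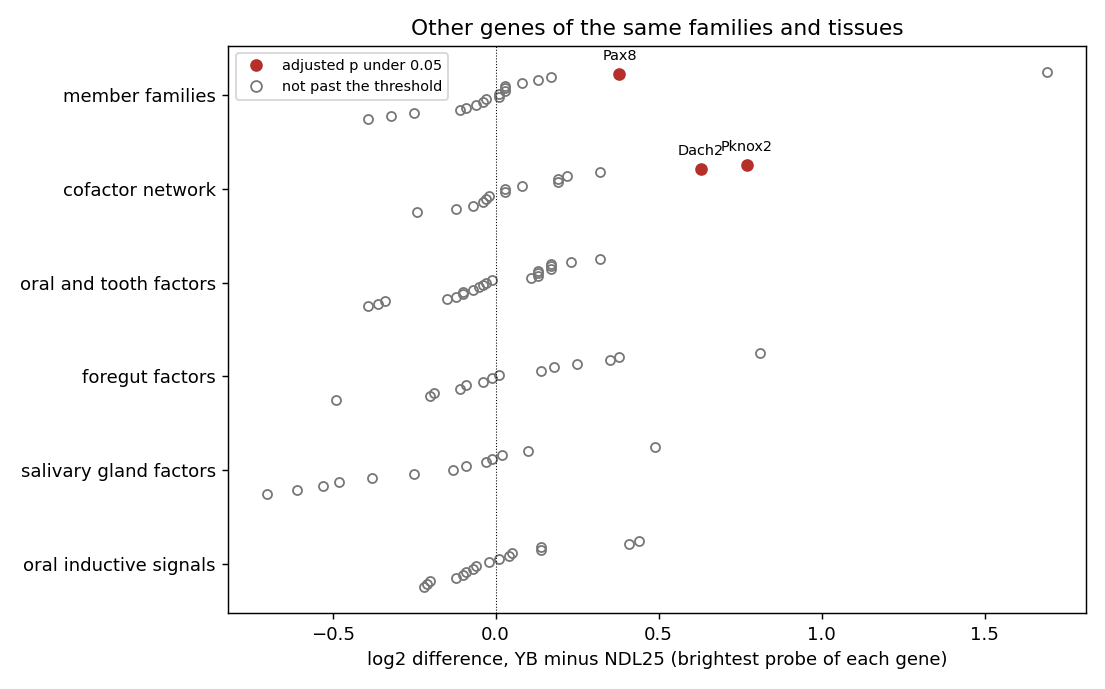
YB minus NDL25 on the log2 scale for the brightest probe of each of the 97 measured genes in the 6 lists; filled points have a limma adjusted p under 0.05 and open points do not. The filled points are Pax8 at 0.38 in the family list and Dach2 and Pknox2 at 0.63 and 0.77 among the partners; the open point furthest to the right is Pax1 at 1.69, with its high value in 1 of 2 pools.

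In the lists of oral, foregut and salivary regulators the genes with the smallest p over the 6 strains did not pass in YB. Foxa1, a forkhead factor of endoderm and of luminal mammary cells, was 0.81 ± 0.28 above NDL25 (adjusted p = 0.198). Hhex was 0.35 ± 0.20 above it (adjusted p = 0.471) and Nkx2-5 0.25 ± 0.08 (adjusted p = 0.163). Gata6, a zinc finger factor of endoderm, was 0.18 ± 0.07 higher on its brightest probe (adjusted p = 0.28), while its other probe, looked at after its value was seen, gave 1.85 ± 0.21 (adjusted p = 0.00749). The call for that probe was lost without NDL25 pool 1 (adjusted p = 0.069), without NDL25 pool 2 (0.0525) and when only the 4 pools of YB and NDL25 were fitted (0.224). In the same way, a second probe of Dach1 gave 0.81 (adjusted p = 0.0242), against 0.03 on the brightest, a call kept in 14 of 22 alternatives and lost without any 1 pool of YB, NDL25 or YD. Of the oral and tooth factors, Msx1 was 0.32 ± 0.07 above NDL25 (adjusted p = 0.0655), while Tbx1, Msx2 and Lef1 had differences of 0.17 ± 0.14, -0.07 ± 0.06 and -0.34 ± 0.33, with adjusted p from 0.636 to 0.717. The salivary gland factors Bhlha15, Xbp1, Spdef and Tfcp2l1 had differences of -0.38, -0.61, -0.53 and -0.70, with adjusted p from 0.278 to 0.471. In the family and partner lists Pax4, Sox1, Pax3, Pbx3 and Pbx2 had -0.39, -0.25, 0.17, -0.24 and -0.02, with adjusted p from 0.0618 to 0.971. Of the inductive signals, Fgf9, Fgf10 and Fgfr2 had -0.20, 0.14 and 0.44 on their brightest probes, with adjusted p from 0.155 to 0.654. A second probe of Fgfr2, also looked at after its value was seen, gave 0.37 ± 0.08 (adjusted p = 0.0473), a call kept in 8 of 22 alternatives and lost without any 1 pool of YB, NDL25, YC, YD or NYPD, and a further probe gave 0.02.

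In NYPD 1 of the 97 list genes was higher than in NDL25 and 1 lower by limma, against 0.428% and 0.436% of all probes. In YC, YD and YE the count was 0. At an unadjusted p under 0.05 they had 8, 9 and 5 of the 97, where all 40847 probes gave 4620, 4043 and 2900. NYPD had a session of its own. The growth factor receptor gene Fgfr1 rose by 2.0 ± 0.16 in NYPD (adjusted p = 0.0128) and by 1.80 ± 0.15 on a second probe, with -0.02 and 0.92 on its remaining probes. Without NDL25 pool 1 the difference for Fgfr1 was 1.77 (adjusted p = 0.0785). Pax4, a paired-box factor of pancreatic endocrine cells, stood at 0.10 and 0.06 in NYPD and at 0.63 and 0.82 in NDL25. It fell by 0.65 ± 0.09 in NYPD (adjusted p = 0.0309), a call kept in 10 of 21 alternatives. The NYPD count was 0 without NDL25 pool 1, 7 without NYPD pool 1, 4 without either YB pool, and 1 without NDL25 pool 2 or without any 1 pool of YC, YD or YE.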

How the data were processed

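Two-colour Agilent arrays measured 12 tumour pools, 2 per strain, each against Universal Mouse Reference RNA with the dyes exchanged (24 arrays). The deposited scanner files hold mean, background and processed intensity per spot, per the file headers. Besides these, 1 log2 ratio per pool and probe was deposited by the authors. RMA, limma and R 2.3.0 are named for it in the submitters' processing notes, with no detail of the normalization. Reading that ratio as base 2 is an inference: its slope on the log2 ratios computed here was 1.02 to 1.37.

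Per the labels each channel may hold either dye. The tumour dye was read from the sign of the correlation with the deposited ratio (absolute r 0.955 to 0.979) and from milk and luminal genes, which pointed to the same channel on all 24 arrays, as did Afp for the reference. All 12 pools had 1 array of each dye.

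Intensities were corrected by normexp (offset 50) and normalised by loess within arrays in limma 3.58.1 (R 4.3.3, data.table version 1.17.8). Spots marked as outliers or non-uniform were left out, swapped arrays turned, and the pair averaged. Of 41174 probes, 2 lacked a pool and 325 were well above background on fewer than 4 arrays, leaving 40847. Current symbols came by accession for 20716 probes, by symbol for 5039 and by synonym for 5279, and 10140 kept the name in the file. 1 limma model with a mean per strain was fitted to the 12 pools (6 residual and 1.72 prior degrees of freedom), with Benjamini-Hochberg adjustment in each contrast. The fit was tested on simulated data. Figures were drawn in Python 3.11.15 with matplotlib 3.10.9 and pandas 2.3.3.

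The genes and lists were chosen with earlier results of these data known. Named are every probe of the 6 genes, the 5 genes most like each, and in each list the 4 with the smallest F-test p over 6 strains and any called. Gene lists are read by the brightest probe of each gene. Foxe1, Muc19 and Dcpp2 were not on tested probes. A further 3 genes of these lists are not reported here and are left out of the counts.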

Additional observations from a re-analysis of the deposited data

How the results depend on the processing

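No YB minus NDL25 difference of the 9 probes changed sign under the alternatives run. Some alternatives cannot move this difference by design and add nothing here. They are the replicate and session blocks, the fit of YB and NDL25 alone, and leaving out a pool of another strain. For YB minus NDL25, the scanner's processed signals gave 4.66 for Pax9, 3.33 for Pitx1, 1.09 and 0.79 for Meis1 probes 1 and 2, 3.19 and 4.17 for the Meis2 probes and 3.17 for Sox2. Median centring gave 4.15 for Pax9. The authors' deposited ratios gave 4.47 for Pax9, 1.40 for Meis1 probe 1, 3.58 and 4.67 for the Meis2 probes and -1.97 for Eya1 probe 1. Arrays with the tumour in Cy5 only gave 2.99 for Pitx1 and 3.61 for Meis2 probe 2, and those with it in Cy3 only gave 3.27 and 4.12. Leaving out 1 pool at a time gave 3.82 to 4.17 for Pax9, 2.92 to 3.34 for Pitx1, 0.12 to 0.55 for Meis1 probe 2, 2.63 to 3.32 and 3.49 to 4.23 for the Meis2 probes, 1.32 to 1.77 for Sox2 and -1.93 to -1.39 for Eya1 probe 1. With the pool number as a replicate block, 1 of the 7 probes, Meis1 probe 1, was called in the F test without YB and NDL25 (adjusted p = 0.0439). It was also called in YD against NDL25 and in the F test without YB. Both reuse the NDL25 pools, so nothing is read from them. The pool numbers are not a known pairing: across the 15 pairs of strains, the deviations of equal numbers correlated at -0.16 to 0.74, and 7 were over 0.1. A session block gave 1.34 ± 0.36 for Meis1 probe 1 in YD against NDL25. The cause of these shifts was not tested. Over all probes, the number called in YB was 1272, against 816 with the tumour in Cy3 only, 617 with the session block, 4 with the 4 pools of YB and NDL25 alone, which leave few degrees of freedom, and 133 to 1405 without 1 pool, lowest without an NDL25 pool. In NYPD it was 353, against 652 with the replicate block, 190 with median centring, 228 with deposited ratios, 132 with the session block and 0 to 669 without 1 pool, again lowest without an NDL25 pool. It was at most 10 in YC, YD and YE. A fit without 1 pool leaves a strain with a single pool that is assumed to vary like the others. Low signals of Sox2 and of Meis1 probe 2, near the local background in size, limit the size of their folds.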
